A study of Mus musculus with 10 samples.

Results

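Ribosomal protein pseudogenes are copies of ribosomal protein genes, and 62 of them were counted in these mouse melanomas. They were chosen by symbol and by read count, as genes whose symbol joins the name of a ribosomal protein gene (Rps or Rpl) to a pseudogene suffix (-ps), with at least 10 raw reads summed over the 10 tumours. The symbol pattern fits 259 of the 47643 genes in the count table. Of the 62, 28 carry names of small-subunit proteins and 34 of large-subunit proteins, and together they name 40 parent genes. The read limit used the total over all tumours, and the set itself was picked with earlier results of these data known. Just inside the limit was Rpl3-ps2, with 10 reads, and just outside it were Rpl32-ps, Rps12-ps19, Rpl30-ps10 and Rpl35a-ps5, each with 9.

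The study sequenced RNA of 5 Fes KO melanomas and 5 Fes WT melanomas. Fes is a cytoplasmic tyrosine kinase. Fes KO mice had the genotype Fes-/- and Fes WT mice Fes+/+. Both groups also carried 1 copy of Tyr::CreERT2, a tamoxifen-inducible recombinase driven by the promoter of the pigment-cell gene tyrosinase, as well as BRafV600E on 1 allele and Ptenl/l. Tumours were started in both groups by applying 4OH-Tamoxifen at 5 mM to the skin of the back. The labels give no strain, age or sex, do not say how the Fes allele was made, and leave unsaid whether each tumour is from an animal of its own. The p-values therefore measure the spread between these tumours. The RNA is of whole tumours, so fewer cells of a type and less RNA per cell cannot be told apart.

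A processed pseudogene arises when a messenger RNA is reverse-transcribed and inserted elsewhere in the genome, without introns and usually without the parent's promoter. Ribosomal protein messages are abundant in every cell and belong to the most frequent sources of such copies in mammals. A copy that is still close to its parent shares most short reads with it, so that the assignment of reads between the pair depends on the few bases where they differ. Inbred mouse strains are known to differ in the processed copies they carry.

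Each tumour gave between 13226783 and 16599120 counted reads. Fes itself averaged 38.6 ± 11.7 CPM (counts scaled to library size) in Fes KO tumours, against 81.0 ± 12.6 CPM in Fes WT tumours (SD, n = 5 each), with no overlap between the groups and an edgeR adjusted p of 0.0846. Summed melanocyte markers were at 806 to 1035 CPM in Fes KO tumours, against 516 to 867 CPM in Fes WT tumours, with none of the 8 at 0 and 7 of the 8 higher in the Fes KO mean. Summed macrophage markers were at 806 to 1848 CPM in Fes KO tumours, against 1258 to 3005 CPM in Fes WT tumours, with 0 of 8 higher in the Fes KO mean. Summed T cell markers were at 3.57 to 18.3 CPM in Fes KO tumours, against 8.90 to 33.1 CPM in Fes WT tumours, also with 0 of 8 higher. The part of these cells in the level of Fes was not tested. The summed levels of the 9 marker lists examined, for tumour, skin, muscle, immune and stromal cells and for sex, overlapped between the groups. Fes KO 2 held the most keratinocyte marker RNA (3588 CPM summed) and Fes WT 3 the most skeletal muscle marker RNA (13500 CPM). Xist was expressed in Fes KO 1, Fes KO 2 and Fes WT 5.

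The 62 pseudogenes held 8822 reads, which is 0.00573% of all reads, against 1.93% for the 91 ribosomal protein genes themselves, a list by symbol that holds 5 annotated pseudogenes without the suffix. Of those reads 52.3% fell on 4 pseudogenes, Rps13-ps1, Rps16-ps2, Rpl3-ps1 and Rps15a-ps8. Most of the others were counted at a handful of reads per tumour, and 40 of the 62 had fewer than 50 reads in all. Reads were present in every tumour for 30 of them. The annotation lists 58 as processed pseudogenes, 2 as transcribed processed pseudogenes, and 2, Rpl9-ps6 and Rpl10-ps3, as protein-coding. They lie on 18 chromosomes, 5 of them on X.

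**Figure D1:**
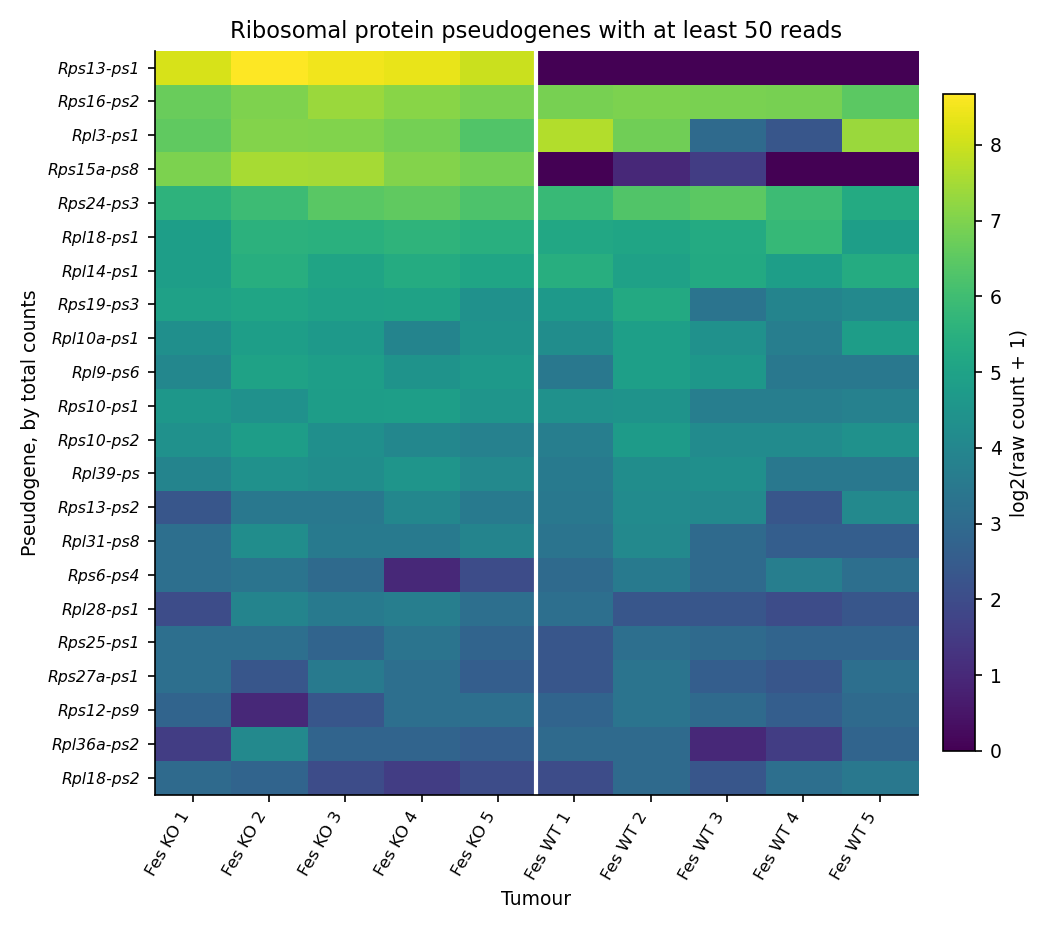
Raw read counts of the 22 ribosomal protein pseudogenes with at least 50 reads in all (rows, ordered by total) in the 5 Fes KO tumours (left of the white line) and the 5 Fes WT tumours (right), as log2(raw count + 1). Rps13-ps1 and Rps15a-ps8 are bright in every Fes KO tumour and dark in every Fes WT tumour, and Rpl3-ps1 is dark in Fes WT 3 and Fes WT 4 only among the 10 tumours.

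Rps13-ps1 and Rps15a-ps8 differed between the groups, and both copy genes for proteins of the small subunit. Stretches of their transcripts are shown with the same stretch of the parent's coding sequence because they show how far a read could tell each pair apart. Sequences come from the GENCODE M21 transcripts (GRCm38), 5′ to 3′, with capitals at the bases that differ within a pair. Coordinates are those of the stretch in the pseudogene. Rps13-ps1 is on the plus strand at chr8:87048056-87048175, and its parent Rps13 is on chromosome 7.
Rps13-ps1: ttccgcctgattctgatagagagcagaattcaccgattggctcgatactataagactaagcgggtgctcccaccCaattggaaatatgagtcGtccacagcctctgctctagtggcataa
Rps13: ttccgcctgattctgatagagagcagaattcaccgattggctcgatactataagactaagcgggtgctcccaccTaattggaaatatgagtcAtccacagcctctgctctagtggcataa
Rps15a-ps8 is on the minus strand at chr4:53791335-53791454, and its parent Rps15a is on chromosome 7.
Rps15a-ps8: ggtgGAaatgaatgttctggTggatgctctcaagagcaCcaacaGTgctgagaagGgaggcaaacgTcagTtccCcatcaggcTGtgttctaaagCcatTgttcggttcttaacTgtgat
Rps15a: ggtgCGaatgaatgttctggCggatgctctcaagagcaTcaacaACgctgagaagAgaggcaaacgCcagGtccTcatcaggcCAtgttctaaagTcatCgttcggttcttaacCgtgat

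The pairs differed in how much sequence they share. Rps13-ps1, a gene of 538 bases at chr8:87047689-87048226, matched the coding sequence of Rps13 at 99.6% of bases. Its 2 substitutions, T411C and A429G, are counted from the first base of the parent's start codon with the parent's base first. Neither changes the amino acid, and the reading frame of 151 codons was open throughout. Rps15a-ps8, 387 bases at chr4:53791070-53791456, matched Rps15a at 92.2% with 30 substitutions, of which 18 change the amino acid when taken alone. Windows of 50 bases were used to describe what a short read could see. Of these windows 12.1% in Rps13-ps1 and 90.5% in Rps15a-ps8 occurred in no other annotated transcript. No other gene overlaps either pseudogene.

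Rps13-ps1 had 280, 405, 360, 333 and 248 reads in Fes KO tumours 1 to 5, against 0 reads in each of the 5 Fes WT tumours. The groups were fully apart. In Fes KO tumours its level was 20.7 ± 2.80 CPM (mean ± SD, n = 5). With reads and library sizes pooled within each group, it was at least 528-fold higher in Fes KO than a floor of 3 reads over the whole Fes WT group (0.0395 CPM). Its edgeR adjusted p was 0.000182.

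Rps15a-ps8 had 124, 185, 181, 133 and 114 reads in Fes KO tumours 1 to 5, against 0, 1, 2, 0 and 0 reads in Fes WT tumours 1 to 5. The lowest Fes KO tumour was far above the highest Fes WT tumour. With reads and library sizes pooled within each group, the ratio of Fes KO to Fes WT was 239, with a 95% counting interval of 81.6 to 1160 that covers counting error only. The fitted log2 fold change was 7.64 (SE 0.57, edgeR adjusted p = 4.2e-04).

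These were 2 of the 15 pseudogenes that had enough reads to be tested, and both were higher in Fes KO. A gene was called when its edgeR adjusted p was below 0.05. Over all 14816 genes tested 26 were called in either direction, or 0.175%, with 0.0472% higher and 0.128% lower in Fes KO. The same 2 members were those whose groups did not overlap, which was so for 1.82% of all genes tested. Both passed the filter on low counts only through the Fes KO tumours, so the share of 15 is not a measure of how often such copies change. The other 47 pseudogenes, with at most 73 reads each, were not tested. On/off was defined as at most 1 read in every tumour of one group and at least 5 in every tumour of the other. By that definition 1 of the 62 was on/off, Rps13-ps1, against 0.034% of the 20566 genes with at least 10 reads. Of the 897 other processed pseudogenes by annotation with at least 10 reads, 2 were on/off, or 0.223%. Rps15a-ps8 missed the definition by the 2 reads of Fes WT 3, and without that tumour 2 of the 62 were on/off. Whether either pseudogene is a variant between strains was not tested, since no strain is given for these mice.

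Neither parent was called. Rps13 was at 146, 209, 160, 154 and 148 CPM in Fes KO tumours 1 to 5 and at 144, 173, 183, 142 and 194 CPM in Fes WT tumours 1 to 5. The groups overlapped throughout, with a log2 fold change of -0.02 (SE 0.14, edgeR adjusted p = 0.979). Rps15a was at 190 to 248 CPM in Fes KO tumours, against 191 to 264 CPM in Fes WT tumours, with a log2 fold change of -0.09 (SE 0.12, edgeR adjusted p = 0.831).

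**Figure D2:**
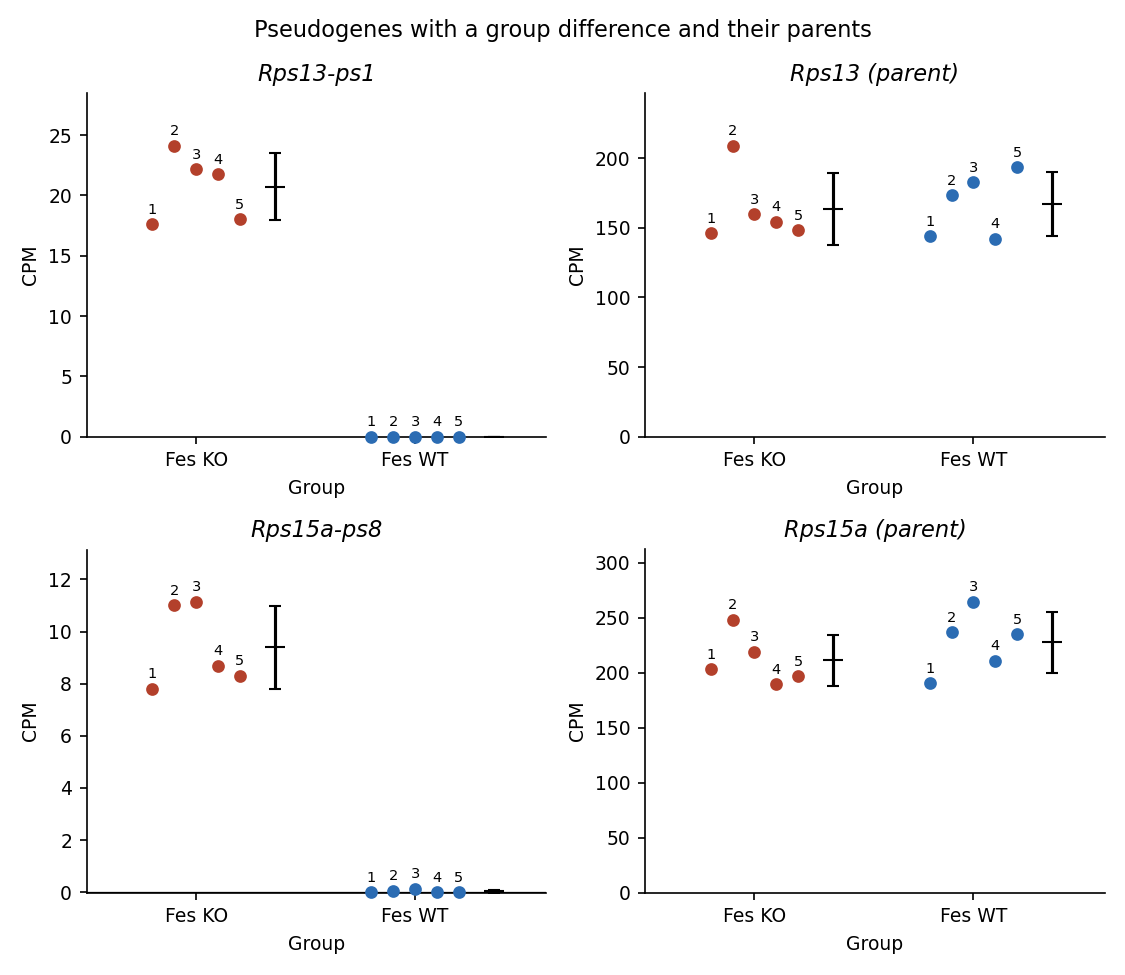
Levels in CPM (vertical axes, from 0) of Rps13-ps1 and Rps15a-ps8 (left) and of their parents Rps13 and Rps15a (right). Numbered points are the 5 Fes KO and the 5 Fes WT tumours, and bars give mean ± SD. Both pseudogenes are at or near 0 in every Fes WT tumour, while the parents overlap between the groups.

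Setting each pseudogene against its parent in the same tumour removes the library scaling. Rps13-ps1 took 10.8%, 10.4%, 12.2%, 12.3% and 10.9% of the reads of the pair in Fes KO tumours 1 to 5, against 0% in every Fes WT tumour. The share was even across Fes KO. Counting alone allows up to 0.174% in the Fes WT tumour with the fewest reads of the pair (Wilson 95% interval). Rps15a-ps8 took 3.70% to 4.84% of its pair in Fes KO and 0% to 0.0492% in Fes WT. The log2 ratio of pseudogene to parent, with 0.5 added to each count, was higher in Fes KO by 9.32 for Rps13-ps1 and by 7.46 for Rps15a-ps8. Every Fes KO tumour was above every Fes WT tumour in both ratios. This follows from the separation of the pseudogene counts and is given as a description, with no test.

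The amounts also differed within the pairs. Rps13-ps1 was 20.7 CPM higher in Fes KO, while the mean of Rps13 was lower by 3.75 CPM, less than its SD of 25.9 in Fes KO and 23.2 in Fes WT. Rps15a-ps8 was 9.35 CPM higher and the mean of Rps15a 16.1 CPM lower, within its SD of 23.2 in Fes KO and 28.0 in Fes WT. Per kilobase of transcript, Rps13-ps1 reached 38.5 CPM in Fes KO beside 278 for Rps13, and Rps15a-ps8 reached 24.3 beside 330 for Rps15a. These values use the whole transcript length. Only 12.1% of the 50-base windows of Rps13-ps1 are its own, against 90.5% for Rps15a-ps8, so the values are not closely comparable between copies or with parents.

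Other copies of the same parents were counted as well. Rps13-ps2, with a coding stretch identical to that of Rps13 and no 50-base window of its own, had 4, 10, 10, 15 and 11 reads in Fes KO tumours 1 to 5, against 10, 17, 16, 4 and 16 in Fes WT tumours 1 to 5. These groups overlapped, with a log2 fold change of -0.37 (SE 0.45, edgeR adjusted p = 0.823). Rps13-ps4 had 39 reads in all and was not tested. None of the 5 other copies of Rps15a, Rps15a-ps3 to Rps15a-ps7, had enough reads for the test, at 14 to 26 reads each.

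Genes that lie near the called pseudogenes were looked at next, and the 3 given here were not called. Around Rps13-ps1, N4bp1, a regulator of ubiquitin-dependent signalling 162 kb away, had a log2 fold change of 0.00 (SE 0.09), and Zfp423, a zinc-finger transcription factor 614 kb away, had 0.11 (SE 0.24). Beside Rps15a-ps8, Tmem38b, a gene for an ion channel of the endoplasmic reticulum 34.6 kb away, was at 12.1 ± 2.36 CPM in Fes KO tumours, against 19.2 ± 5.45 CPM in Fes WT tumours. Its groups overlapped, and its log2 fold change of -0.65 (SE 0.21) had an edgeR adjusted p of 0.358.

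The 13 other tested pseudogenes were not called, 9 with a log2 fold change above 0 and 4 below. Rps16-ps2, a copy of the small-subunit gene Rps16 in an intron of Adgrd1, had 102, 127, 165, 139 and 119 reads in Fes KO tumours 1 to 5, against 117, 123, 120, 117 and 88 in Fes WT tumours 1 to 5. The groups overlapped, with a log2 fold change of 0.18 (SE 0.15, edgeR adjusted p = 0.716). The copy is identical to the coding sequence of Rps16 and none of its 392 windows of 50 bases is its own. The parent was at 112 ± 21.7 CPM in Fes KO tumours, against 107 ± 11.7 CPM in Fes WT tumours.

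Rpl18-ps1, in an intron of Ctla4, a gene for an inhibitory receptor of T cells, had 28 to 49 reads in Fes KO and 28 to 55 in Fes WT, with a log2 fold change of 0.14 (SE 0.22). Its symbol names the large-subunit gene Rpl18, but the sequence goes against that. It aligned to 2.8% of the Rpl18 coding sequence. Rpl18 was not called, at a log2 fold change of 0.05 (SE 0.13).

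Rps10-ps1, named after its values were seen, had 23, 20, 27, 28 and 22 reads in Fes KO tumours 1 to 5, against 20, 21, 12, 12 and 13 in Fes WT tumours 1 to 5. Its groups overlapped, with Fes KO 2 at 1.19 CPM below Fes WT 1 at 1.304 CPM and Fes WT 2 at 1.335 CPM. Its log2 fold change of 0.59 (SE 0.23) gave an unadjusted p of 0.029 and an adjusted p of 0.466 in edgeR. It was the only uncalled one with an unadjusted p below 0.05, and 9.62% of all genes tested passed that mark. Its parent Rps10 was at 0.04 (SE 0.12). Rps10-ps2, the second tested copy of Rps10, was at -0.01 (SE 0.27).

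The remaining members among the 10 with the most RNA had values on both sides of 0. Rpl9-ps6, listed as protein-coding with 1 substitution against Rpl9, was at 1.54 ± 0.384 CPM in Fes KO tumours, against 1.07 ± 0.562 CPM in Fes WT tumours, with a log2 fold change of 0.53 (SE 0.36). Rpl14-ps1, in an intron of Trpm4, had -0.05 (SE 0.22), and Rpl10a-ps1, identical to Rpl10a over the aligned coding sequence, had -0.05 (SE 0.30). Of their parents, all large-subunit genes, Rpl9 was at 0.02 (SE 0.11), Rpl14 at 0.02 (SE 0.12) and Rpl10a at 0.16 (SE 0.13).

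**Figure D3:**
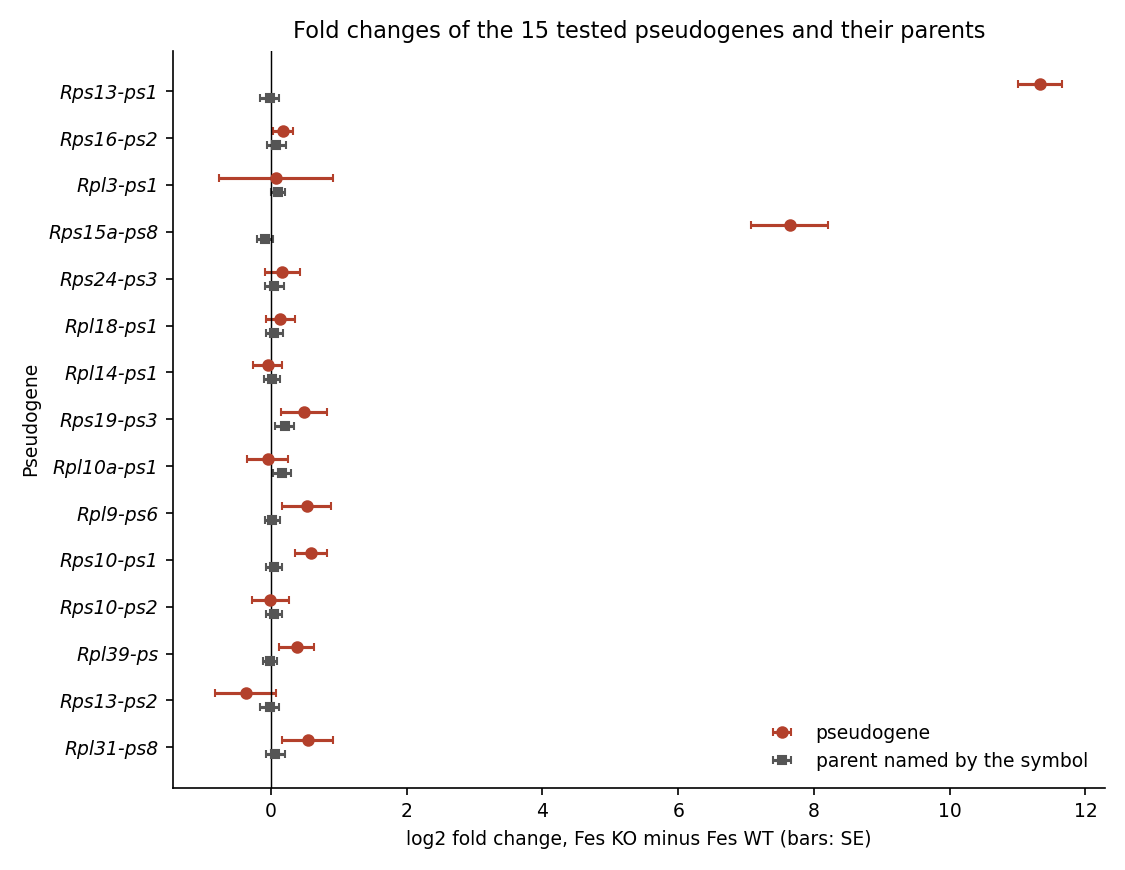
Log2 fold changes, Fes KO minus Fes WT, of the 15 tested pseudogenes (circles) and of the parent each symbol names (squares), with bars for the SE. Rps13-ps1 at 11.33 and Rps15a-ps8 at 7.64 stand to the right of all others, and the first value has no reads in Fes WT behind it, so that it depends on the count added by the fit.

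Variation inside a group was larger than the group difference for some members. The ratio of variance to mean of the counts, pooled within the groups, had a median of 1.26 and was below 2 for 46 of the 62. Pure counting error gives a ratio near 1. Rpl3-ps1 had the highest at 47.2. It had 92, 132, 129, 114 and 79 reads in Fes KO tumours 1 to 5, against 202, 109, 7, 4 and 163 in Fes WT tumours 1 to 5. Fes WT 3 and Fes WT 4 were thus close to 0, while Fes WT 1 and Fes WT 5 were above every Fes KO tumour. The group means were 6.96 ± 1.10 CPM in Fes KO tumours, against 6.64 ± 6.22 CPM in Fes WT tumours, with a log2 fold change of 0.08 (SE 0.84, edgeR adjusted p = 0.984) that became -0.22 without Fes WT 3 and -0.23 without Fes WT 4. It was 0.90 in limma-voom with quality weights, 1.30 in limma on the deposited log2 values and 0.99 with the replicate number as a block, and 0.49 and 0.44 without Fes WT 1 and Fes WT 5. It was not called in any of these, where adjusted p lay between 0.632 and 0.941.

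Rpl3-ps1 is a copy of Rpl3, a large-subunit gene on chromosome 15, at chrX:13202571-13203780 on the plus strand. It differs from the parent's coding sequence by C57A and T786C, neither of which changes the amino acid, and 4.3% of its 50-base windows occurred in no other annotated transcript. The stretch around T786C, at chrX:13203297-13203416, is shown because a read has only such single bases to tell this pair apart.
Rpl3-ps1: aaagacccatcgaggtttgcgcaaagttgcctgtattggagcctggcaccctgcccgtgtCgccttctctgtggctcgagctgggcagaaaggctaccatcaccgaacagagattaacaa
Rpl3: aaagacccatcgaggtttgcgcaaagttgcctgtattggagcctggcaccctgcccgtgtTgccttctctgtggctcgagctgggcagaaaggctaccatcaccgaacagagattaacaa
The parent did not dip in those tumours. Rpl3 was at 371 CPM in Fes WT 3 and 352 CPM in Fes WT 4, inside the range of 303 to 383 CPM of all Fes WT tumours, and at 346 to 408 CPM in Fes KO. Fes WT 3 was the tumour richest in muscle markers, and neither of the pair expressed Xist. The part of either in the low counts was not tested.

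The next members also varied between tumours of a group. Rps24-ps3, also on X and a copy of a small-subunit gene, had 48, 61, 86, 92 and 75 reads in Fes KO tumours 1 to 5, against 56, 79, 88, 60 and 38 in Fes WT tumours 1 to 5. The groups overlapped, and the 3 tumours that expressed Xist held the 48, 61 and 38 reads. These were the lowest levels, at 2.89 to 3.63 CPM, against 3.65 to 6.01 CPM in the other tumours. Rps19-ps3 had 20 to 33 reads in Fes KO and 9 to 37 in Fes WT, with a log2 fold change of 0.49 (SE 0.34, edgeR adjusted p = 0.664). Rpl34-ps2, on chromosome 13 and named after its values were seen, had 10, 16, 0, 1 and 1 reads in Fes KO tumours 1 to 5, against 4, 0, 0, 2 and 13 in Fes WT tumours 1 to 5. Its highest values, 10, 16 and 13, were in the tumours that expressed Xist, the opposite direction to Rps24-ps3. The part of Xist expression in either pattern was not tested. The parent Rpl34 was at 133 to 222 CPM in Fes KO tumours, against 125 to 224 CPM in Fes WT tumours.

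**Figure D4:**
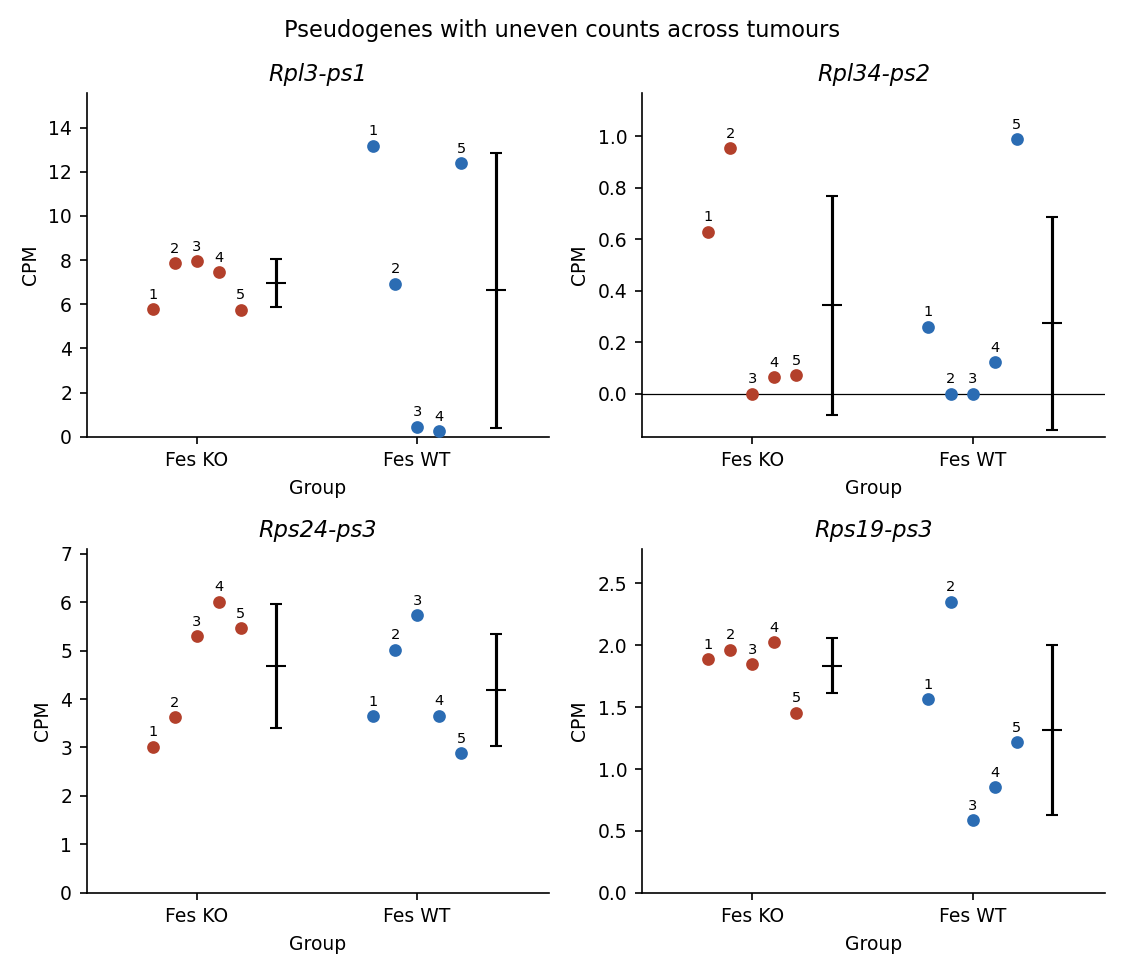
Levels in CPM of Rpl3-ps1, Rpl34-ps2, Rps24-ps3 and Rps19-ps3 in the 5 Fes KO and the 5 Fes WT tumours (numbered points), with mean ± SD. Rpl3-ps1 is near 0 in Fes WT 3 and Fes WT 4, and Rpl34-ps2 is highest in Fes KO 1, Fes KO 2 and Fes WT 5.

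The summed level of the 62 pseudogenes was 61.4 to 81.6 CPM in Fes KO tumours, against 27.1 to 46.7 CPM in Fes WT tumours. Rps13-ps1 and Rps15a-ps8 made up most of that gap. Without them the sum was 44.2 ± 4.90 CPM in Fes KO tumours, against 39.9 ± 8.76 CPM in Fes WT tumours. Without Rpl3-ps1 as well it was 37.2 ± 4.07 CPM in Fes KO tumours, against 33.3 ± 4.26 CPM in Fes WT tumours, and the groups overlapped in both sums. The ribosomal protein genes summed to 19730 ± 2552 CPM in Fes KO tumours, against 18880 ± 2288 CPM in Fes WT tumours.

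The genes of the ribosome and its assembly were not called. Of the 91 ribosomal protein genes 85 were tested and 0 passed in edgeR, with 2 at an unadjusted p below 0.05. DESeq2 and limma-voom with quality weights called 1 each, Rpl35a, where they called 1.76% and 0.776% of all genes they tested. Their median log2 fold change was 0.07, with 72 above 0 and 13 below, against 0.01 for all genes. Without Fes KO 2, the keratinocyte-rich tumour, the median was -0.05 with 24 above 0, so the sign rests on that tumour. Rpl35a, a large-subunit gene named after its values were seen, was at 96.8 ± 15.9 CPM in Fes KO tumours, against 61.9 ± 6.12 CPM in Fes WT tumours without overlap, with a log2 fold change of 0.66 (SE 0.13, edgeR adjusted p = 0.11). Its adjusted p was 0.000808 in DESeq2 and 0.0373 in limma-voom, and ranged up to 0.324 over the alternatives.

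Among abundant ribosomal protein genes, Rpl4 was at 0.11 (SE 0.14), Rplp1 at 0.13 (SE 0.15) and Rplp0 at 0.23 (SE 0.15) in log2 fold change. Of 31 genes of ribosome assembly 0 were called and none had an unadjusted p below 0.05 in edgeR, with a median of 0.07. The nucleolar genes Ncl and Npm1 were at 0.05 (SE 0.09) and 0.11 (SE 0.15), and Ubtf, a factor of ribosomal RNA transcription, at 0.17 (SE 0.09). Of 16 genes for translation factors and related proteins whose messages share the regulatory start of ribosomal protein messages, 0 were called and 2 had an unadjusted p below 0.05, with a median of 0.09. The elongation factor genes Eef1a1 and Eef2 were at 0.05 (SE 0.13) and 0.08 (SE 0.12), and Tpt1 at 0.02 (SE 0.10).

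Other pseudogenes gave a wider setting. Of 26 tested genes with a pseudogene suffix and a parent outside the ribosome, 1 was called, Glns-ps1, a copy of the glutamine synthetase gene. It had 0, 3, 1, 0 and 3 reads in Fes KO tumours 1 to 5, against 51, 40, 46, 39 and 29 in Fes WT tumours 1 to 5. It was lower in Fes KO by a log2 fold change of -4.76 (SE 0.59, edgeR adjusted p = 0.013), opposite in direction to the called ribosomal protein copies. That adjusted p was 0.0706 without Fes KO 3 and 0.0512 without Fes WT 2. Of 153 other tested processed pseudogenes by annotation, 8 were called, or 5.23%, 3 higher and 5 lower in Fes KO. Over all genes tested the share called was 0.175%. With at least 10 reads there were 897 such pseudogenes, most of them not tested. A copy with reads mainly in 1 group, such as Glns-ps1, passes the filter on low counts through that group. The share is therefore not a measure of how often such copies change.

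Counted and uncounted members of the symbol family differed in sequence. The 62 with at least 10 reads matched their parents at a median of 98.9% of aligned bases, the 196 annotated ones under 10 reads at 96.2%, and the 85 of those with no read at 94.4%. This is a description of the groups that the read limit made, with no test. A full frame meant an ATG at the parent's start and the parent's number of codons before a stop or the transcript's end. A copy annotated a few bases short could thus count as lacking it. A full frame was found in 61.3% of the 62, in 39.7% of those under 10 reads and in 32.1% of those with none. A median of 33.3% of their 50-base windows were found in no other transcript, against 68.8% in those under 10 reads. For 9 of the 62 no window was their own, and these held 17 to 1217 reads each. The same was so for 25 of the 196 under 10 reads, among them 18 of the 85 with no read. Of the 62, 38 overlap no other gene, 21 lie in an intron and 3 share an exon with another gene.

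**Figure D5:**
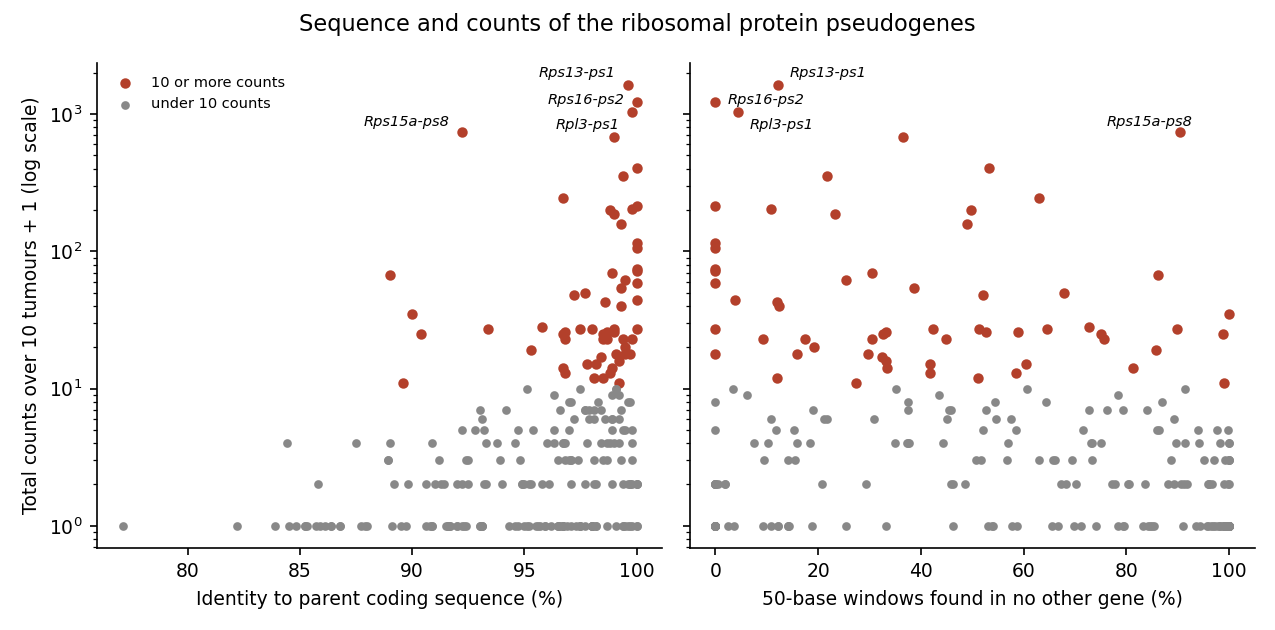
Total reads over the 10 tumours plus 1 (log scale) against identity to the parent's coding sequence over the aligned part (left) and against the share of 50-base windows found in no other gene (right), for annotated ribosomal protein pseudogenes with at least 10 reads (red) and under 10 reads (grey). Rps13-ps1, Rps16-ps2 and Rpl3-ps1 lie at high identity with few windows of their own, and Rps15a-ps8 at 92.2% identity with 90.5%.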

How the data were processed

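RNA was sequenced from 10 mouse melanomas, 5 Fes KO and 5 Fes WT, grouped by the sample titles. The authors deposited raw read counts per gene and log2 values of the same genes, which, from the values, equal log2 of the count over a size factor plus 1. Per the submitters' processing notes, the tools were FastQC, STAR 2.51b and Subread 1.4.6, with mm10 and GRCm38 as builds. Tool settings, read length, strand setting and the treatment of reads that map to several places (not given in the sources used here) decide how reads are split between a pseudogene and its parent.

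Counts were tested with edgeR 4.0.16 (TMM, filterByExpr, quasi-likelihood, Benjamini-Hochberg adjustment over all genes tested, called below 0.05), tested first on simulated data. CPM use TMM-scaled library sizes. Differences are Fes KO minus Fes WT. The SE of an edgeR log2 fold change is its absolute value divided by the square root of its F statistic. Where a group has few or no reads, this SE can be narrower than counting error alone. Alternatives used DESeq2 1.42.0 and limma 3.58.1, other scalings, filters and subsets of tumours. Symbols came from the deposited log2 table, and coordinates and transcripts from GENCODE M21, which holds 47224 of the 47643 genes and 258 of the 259 pseudogenes of the symbol pattern. Each pseudogene transcript was aligned locally to the coding sequence of the parent named by its symbol (Biopython 1.88). Windows of 50 bases were looked up in all M21 transcripts on both strands, which leaves out unannotated genome.

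The members and lists were chosen with earlier results of these data known. Named genes are the called and on/off members, the 10 members with the highest mean CPM, their parents, up to 3 genes of each list, Fes, and the nearest tested genes beside each called member. Others are said to be named after their values were seen. A few genes that this rule takes are not reported here.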

Additional observations from a re-analysis of the deposited data

Results flagged for a closer look

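For 38 genes, 76 groups were examined for a tumour far from the others of its group, and 4 were marked. Chance marks about 1 in 20 groups, so about this many marks come by chance. All 4 were in Fes KO 2. Rps13, the parent of Rps13-ps1, was at 209 CPM there, against 146 to 160 CPM in the rest of Fes KO. Rps16 was at 150 CPM there, against 98.3 to 107 CPM in the rest. Rpl10a was at 158 CPM there, against 115 to 121 CPM in the rest. Rpl4 was at 989 CPM there, against 681 to 764 CPM in the rest. Fes KO 2 is also the tumour with the most keratinocyte marker RNA, and the part of those cells in these levels was not tested. The called pseudogenes were not marked in any tumour, but Rps13-ps1, at 0 reads throughout Fes WT, had no spread there to examine.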

How the results depend on the processing

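Rps13-ps1 and Rps15a-ps8 were both called in 22 of 23 alternatives that counted called members. Some of these reuse the main fit and could not lose either call. They are the threshold of 0.1, the members with at least 50 reads and the members annotated as processed pseudogenes. With the replicate number as a block 1 was called, Rps15a-ps8, while Rps13-ps1 kept its log2 fold change of 11.33 with an edgeR adjusted p of 0.227, and 4 of all genes were called. Tumours with the same number did not pair, with correlations of 0.172, -0.378, -0.213, -0.105 and 0.137 for numbers 1 to 5, and none was closest to its own number. The log2 ratio to the parent lay above 0 in all 13 alternatives each, at 8.32 to 11.64 for Rps13-ps1 and 6.73 to 8.99 for Rps15a-ps8. Its sign was fixed in advance by the separation of the pseudogene counts. Allowing 3 reads on the low side gave 2 on/off pseudogenes, and leaving out 1 tumour gave 1 to 2, with 2 without Fes WT 3. Ribosomal protein genes called numbered 1 with DESeq2 and 1 with limma-voom. All genes called numbered 299 with DESeq2, 115 with limma-voom, 64 without the tumours that expressed Xist (36 higher and 28 lower, against 7 and 19), 49 at an adjusted p below 0.1, and 10 to 54 when 1 tumour was left out. The count was 10, 10 and 12 without Fes KO 1, 3 and 5, 15, 11 and 16 without Fes WT 1, 2 and 4, and 54 without Fes WT 5. Uncalled log2 fold changes near 0 changed sign, and the cause was not tested. Without the keratinocyte-rich and muscle-rich tumours Rpl3-ps1 was at -0.29, Rps16 at -0.05, Rps24 at -0.04, Rpl18 at -0.04, Rpl14 at -0.06, Rpl9 at -0.05 and Eef1a1 at -0.01. Without the tumours that expressed Xist Rpl14-ps1 was at 0.07, Rpl10a-ps1 at 0.04, Rps16 at -0.08, Rps24 at -0.06, Rpl18 at -0.05, Rpl14 at -0.04, Rpl9 at -0.04, Npm1 at -0.02 and the pseudogene Ppp4r1l-ps at 0.08. With limma-voom Rps16 was at -0.03, Rpl18 at -0.01, Rpl14 at -0.02, Rpl9 at -0.01 and Tpt1 at -0.01. Leaving out 1 tumour gave -0.23 to 0.49 for Rpl3-ps1, -0.15 to 0.04 for Rpl14-ps1, -0.21 to 0.12 for Rpl10a-ps1, -0.15 to 0.04 for Rps13, -0.08 to 0.13 for Rps16, -0.08 to 0.10 for Rps24, -0.08 to 0.10 for Rpl18, -0.09 to 0.06 for Rpl14, -0.08 to 0.06 for Rpl9, -0.03 to 0.16 for Rpl4, -0.03 to 0.20 for Npm1, -0.01 to 0.10 for Eef1a1, -0.01 to 0.06 for Tpt1 and -0.14 to 0.03 for Ppp4r1l-ps. Fes was called with DESeq2 (adjusted p = 0.00013), limma-voom (0.0186) and without Fes KO 4 (0.0164). Glns-ps1 was lost with no filter (adjusted p = 0.0519), with the block (0.2), without Fes KO 3 (0.0706) and without Fes WT 2 (0.0512). The 47 pseudogenes left out by the filter on low counts were not tested.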

Other observations

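Rpl3-ps1 was not the only pseudogene on X with a few tumours near 0. Itih5l-ps, a pseudogene outside the ribosomal family whose name came from the rule for list examples, had 466, 8, 1151, 604 and 863 reads in Fes KO tumours 1 to 5, against 831, 528, 8, 4 and 918 in Fes WT tumours 1 to 5. Fes WT 3 and Fes WT 4 were thus the low Fes WT tumours for both, with 7 and 4 reads of Rpl3-ps1, while Fes KO 2 was low for Itih5l-ps only. The log2 fold change of Itih5l-ps was 0.36 (SE 1.27, edgeR adjusted p = 0.945). It ranged from 0.03 to 0.88 when 1 tumour was left out, with the ends without Fes WT 4 and Fes WT 5, and up to 1.83 with limma-voom, and was not called in any alternative.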
